A study of Mus musculus with 54 samples.

Results

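The 9 genes described here encode receptors with which a T cell reads chemokines and sphingosine 1-phosphate (S1P), and they were chosen by name: Ccr7, S1pr1, S1pr4, Cxcr4, Cxcr3, Cxcr5, Ccr4, Ccr8, and Ccr9. They are 9 of the 55385 gene identifiers counted, and all 9 were among the genes tested, 32290 in the CD5/CD6 experiment and 27780 in the LAT experiment. These genes, and the gene lists counted further below, were chosen with earlier results of these data known. Counts of them set beside the shares of all genes are therefore descriptive. RNA sequencing was done on 54 samples, 3 in each of 18 groups. In the CD5/CD6 experiment (36 samples), naive CD4+ T cells of WT, Cd5-/-, Cd6-/-, and Cd5-/-Cd6-/- mice, taken from spleens and lymph nodes, were enriched with magnetic beads (enriched cells), and the double knockout carries 1 deletion spanning both genes. In the LAT experiment (18 samples), both groups were sorted from mice that carry Lat fl-dtr alleles and the maT-Cre transgene, whose Cre acts in T cells (sorted cells): WT cells still made human DTR, the diphtheria toxin receptor encoded by the undeleted allele, and Lat-/- cells no longer did. All mice were C57BL/6 and 8 to 10 wk old. In each experiment, cells were left unstimulated (0 h) or were stimulated for 4 h or 20 h with plate-bound anti-CD3 at 3 µg/ml and soluble anti-CD28 at 1 µg/ml. The study describes the samples of a condition as independently prepared. The labels do not say whether they came from separate animals, so p-values measure the spread between these samples, which may be technical. In the LAT experiment p-values and SE rest on a spread shared by all genes, as described below.

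Naive T cells circulate between blood and lymphoid organs. CCR7 and CXCR4 respond to chemokines made by lymph node vessels and stroma and help cells to enter and move inside the node, and S1PR1 senses the S1P gradient by which cells leave it. After antigen recognition the outfit of receptors changes, and CXCR3, CCR4, CCR8, CXCR5, and CCR9 steer activated, memory, or follicular cells to inflamed tissue, skin, B cell follicles, or gut. LAT is the adaptor on which the T cell receptor assembles its downstream signaling enzymes, and CD5 and CD6 are surface receptors that associate with the T cell receptor.

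Libraries held from 20554354 to 45222554 counts in the CD5/CD6 experiment and from 17784644 to 28501095 in the LAT experiment, and the lowest count of any of the 9 genes in any library was 13 reads, for Ccr8. Levels are given as CPM, read counts scaled to the library total times its TMM factor. The summed level of 10 markers of CD4+ T cells was 8464 to 11134 CPM at 0 h in the CD5/CD6 experiment and 9881 to 12268 CPM in the LAT experiment. At 20 h it was lower in enriched cells (3737 to 4328 CPM) and sorted WT cells (4144 to 4481 CPM) but not in Lat-/- cells (11235 to 13132 CPM). B cell and myeloid markers differed between the experiments. At 0 h, the sum of 10 B cell markers was 86.8 to 737 CPM and that of 10 myeloid markers 74.1 to 520.3 CPM in the enriched cells, against 1.53 to 4.97 and 4.38 to 6.51 CPM in the sorted cells. In the enriched cells, these sums were 70.2 to 321 and 11.9 to 78.2 CPM at 4 h and 1.44 to 6.71 and 0.987 to 2.90 CPM at 20 h, so they fell with time as several of the receptors did, and their part in those results was not tested. Sums of 6 NK cell, 8 plasmacytoid dendritic cell, and 2 CD8+ T cell markers overlapped between the experiments at 0 h. Single members of these lists differed in their highest level over all times. Klrb1c reached 24.0 CPM in the CD5/CD6 experiment and 3.02 CPM in the LAT experiment, and Spib 83.9 and 0.530 CPM. Bst2 reached 177 and 156 CPM, Pacsin1 217 and 206 CPM, and Prf1, of the NK cell list, 94.4 and 157 CPM. Overlapping sums therefore do not show like amounts of these cells. The NK cell sum was 63.6 to 227 CPM at 0 h and 2.34 to 12.1 CPM at 20 h in enriched cells, went from 63.0 to 96.9 to 3.58 to 5.04 CPM in sorted WT cells and from 118 to 160.4 to 56.2 to 90.0 CPM in Lat-/- cells, and its part in the receptor results was not tested. Lat lay between 92.2 and 351 CPM in WT cells and between 5.69 and 19.1 CPM in Lat-/- cells of the LAT experiment. By their Cd5 and Cd6 levels, the 0 h libraries 2 labelled Cd5-/- (Cd5 719, Cd6 329 CPM) and Cd6-/- (Cd5 172, Cd6 1203 CPM) go against their labels. They were kept as labelled, and the values given below include them unless stated. Calls were also checked in a fit without both, and the call that changed is given below.

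At rest, 4 of the receptors were abundant and 5 were scarce. Per kilobase of exon (RPKM), Ccr7 stood first in unstimulated WT cells, at 434 ± 59.6 RPKM (SD, n = 3) in the CD5/CD6 experiment and 524 ± 67.1 RPKM in the LAT experiment. S1pr1 followed at 269.8 ± 24.8 and 243 ± 24.5 RPKM. Cxcr4 was at 211 ± 145 and 67.5 ± 22.2 RPKM, and S1pr4, an S1P receptor of lymphoid cells, at 103 ± 28.0 and 129 ± 13.7 RPKM. In the LAT experiment the libraries of these 4 genes did not overlap from one rank to the next, whereas in the CD5/CD6 experiment Cxcr4 overlapped both S1pr1 and S1pr4. The other 5 genes lay between 0.916 and 5.29 RPKM on average in unstimulated WT cells of either experiment. Among them, Cxcr3 overlapped Cxcr5, Cxcr5 overlapped Ccr4, and Ccr4 overlapped Ccr9 in the LAT experiment, and Cxcr5, Cxcr3, and Ccr8 overlapped in the CD5/CD6 experiment. The level of Ccr9 per length is uncertain, because the counted gene model spans 10260 exon bases from 123678439 to 123784330 on chromosome 9 of GRCm38 and includes exons far upstream, some of which overlap other genes.

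S1pr1, the exit receptor, fell in stimulated WT cells. Its gene occupies bases 115710433 to 115715072 of chromosome 3 (GRCm38, minus strand). In the 3 enriched WT samples S1pr1 was at 903, 754, and 809 CPM at 0 h, 150.1, 243, and 292 CPM at 4 h, and 25.5, 16.7, and 15.6 CPM at 20 h. The groups did not overlap, and the level was 3.60-fold lower at 4 h and 42.6-fold lower at 20 h (log2 fold change -5.41, SE 0.24, adjusted p 1.1e-32, by the quasi-likelihood test of edgeR, adjusted after Benjamini and Hochberg, as throughout). In bulk samples like these, fewer cells with the RNA and less RNA per cell cannot be told apart. CPM is relative to the rest of a library. A fall or rise in it can therefore also reflect a change in the other RNA of the cells, which was not measured. In sorted WT cells S1pr1 was at 740.02, 667, and 816 CPM at 0 h, 344, 402, and 786 CPM at 4 h, and 54.6, 55.4, and 57.7 CPM at 20 h. Replicate 3 stood above the others at 4 h, and the change to 4 h did not pass the fold threshold (log2 fold change -0.54, SE 0.15). By 20 h the level was 13.3-fold lower (log2 fold change -3.73, SE 0.16, adjusted p 2.17e-114, or 2.46e-10 with filterByExpr). In the LAT experiment the spread entered the test as a trend shared by all genes and not as each gene's own. The SE values of that experiment follow the trend too and do not show how far a gene's own libraries scatter. A second p-value is therefore given, from the fit restricted by edgeR's filterByExpr. That fit keeps expressed genes and lets each gene's own spread count.

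S1pr4 fell early in WT cells. Enriched WT libraries held 209, 204, and 322 CPM at 0 h, 42.9, 46.9, and 64.6 CPM at 4 h, and 42.6, 40.4, and 49.5 CPM at 20 h. The fall by 4 h was 4.76-fold (log2 fold change -2.25, SE 0.18, adjusted p 6.08e-18), and from 4 h to 20 h the log2 fold change was -0.22 (SE 0.18, adjusted p 0.419). Sorted WT cells went from 307 ± 32.8 CPM (SD, n = 3) to 99.7 ± 49.4 CPM at 4 h and 62.9 ± 2.20 CPM at 20 h, with log2 fold changes of -1.62 (SE 0.15) and -2.29 (SE 0.16) from 0 h and filterByExpr adjusted p of 4.97e-06 and 5.81e-08. Its gene occupies bases 81497747 to 81500132 of chromosome 10 (minus strand).

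Ccr7, the receptor for CCL19 and CCL21, dipped and came back. Enriched WT libraries held 869.6, 735, and 970.4 CPM at 0 h, 302, 374, and 332 CPM at 4 h, and 979, 933, and 1163 CPM at 20 h. Every 4 h library was below every 0 h and 20 h library. The fall to 4 h was 2.56-fold (log2 fold change -1.35, SE 0.16, adjusted p 4.4e-11) and the rise from 4 h to 20 h 3.05-fold (log2 fold change 1.61, SE 0.16, adjusted p 1.09e-13), and at 20 h the difference from 0 h did not pass the test (log2 fold change 0.26, SE 0.16, adjusted p 0.23). Sorted WT cells held 918, 1179.8, and 1010.1 CPM at 0 h, 524, 592, and 936 CPM at 4 h, and 1322, 1366, and 1513 CPM at 20 h. There, replicate 3 at 4 h overlapped the 0 h libraries, the change to 4 h stayed under the fold threshold (log2 fold change -0.60, SE 0.15), and the rise from 4 h to 20 h was 2.05-fold (log2 fold change 1.03, SE 0.15, adjusted p 2.12e-11, or 0.000124 with filterByExpr). That rise is close to the threshold and fell below it without replicate 1 or replicate 2, at log2 fold changes of 0.98 and 0.95. The gene occupies bases 99144196 to 99155077 of chromosome 11 (minus strand).

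Cxcr4, the receptor for CXCL12, showed the deepest loss of the 9 genes in WT cells at 20 h. At 0 h its level varied more between libraries than that of the other abundant receptors: the enriched WT libraries held 677, 175, and 294 CPM, and the 12 enriched 0 h libraries ran from 57.9 to 677 CPM. At 4 h the WT libraries held 83.3, 61.7, and 65.0 CPM and at 20 h 2.51, 3.87, and 4.19 CPM. The fall was 5.45-fold at 4 h and 109-fold at 20 h (log2 fold change -6.77, SE 0.44, adjusted p 8.16e-23). Without replicate 1, whose 0 h library was the highest, the log2 fold change at 20 h was -5.86. Sorted WT cells were at 76.6, 138, and 152 CPM at 0 h and 101, 105, and 107 CPM at 4 h. These groups overlapped and the difference did not pass the test (log2 fold change -0.23, SE 0.15, adjusted p 0.311). At 20 h, with 3.25, 3.61, and 4.24 CPM, Cxcr4 was 33.0-fold lower than at 0 h (log2 fold change -5.04, SE 0.19, adjusted p 3.35e-160, or 6.55e-10 with filterByExpr).

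Ccr8, a receptor for CCL1 found on T helper type 2 and regulatory T cells, rose most. Enriched WT libraries held 3.52, 2.89, and 2.89 CPM at 0 h, 292, 246, and 185 CPM at 4 h, and 27.0, 27.6, and 21.4 CPM at 20 h, a 77.8-fold rise by 4 h (log2 fold change 6.28, SE 0.24, adjusted p 6.55e-36) followed by a 9.50-fold fall. At 4 h its RPKM of 205 ± 45.4 (SD, n = 3) overlapped that of Ccr7. Sorted WT cells rose 87.2-fold by 4 h, from 4.16, 3.47, and 3.78 CPM to 382, 428, and 187 CPM (log2 fold change 6.45, SE 0.20, adjusted p 3.03e-227, or 2.94e-11 with filterByExpr), and held 30.0, 27.3, and 25.7 CPM at 20 h. Replicate 3 stood below the others at 4 h, and no 4 h library overlapped another time. Cxcr3, the receptor for the interferon-induced chemokines CXCL9, CXCL10, and CXCL11, was also transient. It stood at 3.52, 3.82, and 11.6 CPM at 0 h, 57.2, 53.0, and 54.1 CPM at 4 h, and 1.63, 2.88, and 2.21 CPM at 20 h in enriched WT cells. It was 8.60-fold higher at 4 h (log2 fold change 3.10, SE 0.34, adjusted p 1.6e-12), with a log2 fold change of 3.90 without replicate 3, and its 20 h level was lower than at 0 h (log2 fold change -1.52), a value that moved to -0.73, under the fold threshold, without replicate 3, whose 0 h library was the highest. Sorted WT cells went from 4.90, 2.11, and 4.24 CPM to 90.9, 64.7, and 57.2 CPM at 4 h, 18.8-fold higher (log2 fold change 4.24, SE 0.22, adjusted p 2.29e-77, or 4.4e-07 with filterByExpr), and to 2.52, 2.36, and 3.45 CPM at 20 h.

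Ccr4, the receptor for CCL17 and CCL22, rose by 4 h and kept rising to 20 h. Enriched WT libraries held 2.19, 2.86, and 3.54 CPM at 0 h, 36.2, 16.2, and 22.2 CPM at 4 h, and 65.7, 50.1, and 55.9 CPM at 20 h, and the groups did not overlap. The level was 8.61-fold higher at 4 h and 19.8-fold higher at 20 h (log2 fold change 4.31, SE 0.30, adjusted p 3.39e-21). In sorted WT cells it was at 3.10, 2.89, and 5.43 CPM, 15.7, 22.6, and 9.20 CPM, and 55.5, 59.2, and 70.6 CPM at the 3 times, 16.1-fold higher at 20 h (log2 fold change 4.01, SE 0.22, adjusted p 7.73e-73, or 8.08e-09 with filterByExpr).

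The windows around the start sites of the 3 receptors that rose and of S1pr4, Cxcr4, and Ccr9, which fell, are shown because these genes changed with stimulation. They hold 250 bases before and 50 after the RefSeq start (GRCm38.p6, transcribed strand, 5′ to 3′), and RefSeq windows were found for 6 of the 9 genes. Capitals mark matches, on either strand, to 5 letter strings: GGAAA, the core bound by NFAT factors, TGANTCA, bound by AP-1, CACCC, bound by KLF factors, GTAAACA, bound by FOXO factors, and GCGTGGG, bound by EGR factors.
Ccr4 (chr9:114496495-114496794, minus strand): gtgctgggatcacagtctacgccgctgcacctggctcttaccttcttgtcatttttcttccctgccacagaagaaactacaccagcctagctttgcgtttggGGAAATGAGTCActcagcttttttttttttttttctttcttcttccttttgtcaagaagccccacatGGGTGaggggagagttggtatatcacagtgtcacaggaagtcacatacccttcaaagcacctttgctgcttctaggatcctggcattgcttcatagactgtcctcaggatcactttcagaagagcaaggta
Ccr8 (chr9:120091883-120092182, plus strand): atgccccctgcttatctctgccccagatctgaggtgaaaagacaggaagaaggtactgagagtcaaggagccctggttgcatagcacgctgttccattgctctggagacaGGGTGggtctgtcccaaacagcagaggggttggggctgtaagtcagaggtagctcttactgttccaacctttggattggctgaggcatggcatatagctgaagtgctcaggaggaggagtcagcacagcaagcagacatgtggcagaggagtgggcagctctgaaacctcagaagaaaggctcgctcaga
Cxcr3 (chrX:101734098-101734397, minus strand): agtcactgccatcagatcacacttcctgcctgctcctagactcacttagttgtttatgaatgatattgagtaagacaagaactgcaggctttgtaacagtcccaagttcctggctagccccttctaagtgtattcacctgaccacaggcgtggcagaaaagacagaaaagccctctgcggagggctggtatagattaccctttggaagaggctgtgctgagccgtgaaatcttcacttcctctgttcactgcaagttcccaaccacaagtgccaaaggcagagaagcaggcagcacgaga
S1pr4 (chr10:81500088-81500387, minus strand): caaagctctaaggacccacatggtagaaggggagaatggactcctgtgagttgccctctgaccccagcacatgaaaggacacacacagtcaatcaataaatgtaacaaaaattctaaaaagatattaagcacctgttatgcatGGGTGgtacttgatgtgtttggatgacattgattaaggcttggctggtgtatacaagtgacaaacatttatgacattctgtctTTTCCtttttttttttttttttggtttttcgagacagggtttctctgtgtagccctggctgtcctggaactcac
Cxcr4 (chr1:128592250-128592549, minus strand): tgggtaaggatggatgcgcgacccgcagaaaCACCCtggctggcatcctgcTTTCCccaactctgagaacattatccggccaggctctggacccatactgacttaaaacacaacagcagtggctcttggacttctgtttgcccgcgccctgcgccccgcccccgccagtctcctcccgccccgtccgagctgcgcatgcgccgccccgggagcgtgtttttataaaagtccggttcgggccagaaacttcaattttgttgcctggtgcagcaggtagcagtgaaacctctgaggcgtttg
Ccr9 (chr9:123766961-123767260, plus strand): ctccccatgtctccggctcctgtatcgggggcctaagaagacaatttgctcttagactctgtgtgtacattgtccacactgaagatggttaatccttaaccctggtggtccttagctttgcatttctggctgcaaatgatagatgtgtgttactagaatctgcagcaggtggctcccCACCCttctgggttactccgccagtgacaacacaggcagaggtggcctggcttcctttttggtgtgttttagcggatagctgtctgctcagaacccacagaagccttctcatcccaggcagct
In the Ccr4 window the NFAT core runs directly into an AP-1 match. The NFAT core directly followed by the AP-1 string occurs in 12 of 27025 promoter windows of the same length (0.0444%), whereas TGANTCA alone occurs in 7.93%, GGAAA in 61.3%, and CACCC in 56.7% of them. The joined string is not among the 5 listed, and only the arrangement found in the Ccr4 window was counted. Its share is therefore no test of that window. CACCC has 1 match in each window shown except that of Cxcr3, which holds none of the 5 strings, and GGAAA has 1 match in the S1pr4 and Cxcr4 windows. GTAAACA, found in 3.55% of all windows, and GCGTGGG, found in 4.92%, match in none of the 6. A match here is a string of letters and not a measured binding site. The RefSeq starts of Ccr4 and Ccr9 lie 8372 and 88772 bases inside the gene models used for counting.

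Cxcr5, the receptor for the follicle chemokine CXCL13, and Ccr9, the receptor for the gut and thymus chemokine CCL25, were low throughout. Cxcr5 was at 8.28, 6.96, and 37.7 CPM at 0 h, 22.0, 16.0, and 31.2 CPM at 4 h, and 4.51, 3.24, and 4.15 CPM at 20 h in enriched WT cells. B cells also express Cxcr5, and its 0 h level moved with the sum of the B cell markers in the same libraries, which was 209, 136, and 737 CPM. The highest Cxcr5 among the other enriched 0 h libraries, 29.4 CPM in library 3 labelled Cd6-/-, came with the second highest B cell sum, 425 CPM. The part of B cell RNA in the Cxcr5 results was not tested. The change to 4 h did not pass the test (log2 fold change 0.38, SE 0.32, adjusted p 0.474), but without replicate 3 it was 1.31 with an adjusted p of 7.29e-09. The fall to 20 h was 4.45-fold (log2 fold change -2.15, SE 0.34, adjusted p 1.51e-07), and without replicate 3 its log2 fold change was -0.97, under the fold threshold. In the sorted WT cells, with B cell marker sums of 3.33 to 4.97 CPM at 0 h, Cxcr5 was at 5.53, 5.41, and 10.6 CPM at 0 h, 10.2, 7.79, and 9.02 CPM at 4 h, and 4.71, 3.17, and 3.18 CPM at 20 h. It thus had reads where B cell markers were nearly absent, and its log2 fold changes from 0 h, 0.32 (SE 0.25) at 4 h and -0.97 (SE 0.26) at 20 h, did not pass the fold threshold. The counted exons of Cxcr5 share 110 bases with Bcl9l on the other strand, and whether the counting used strand is not given in the sources used here.

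**Figure D1:**
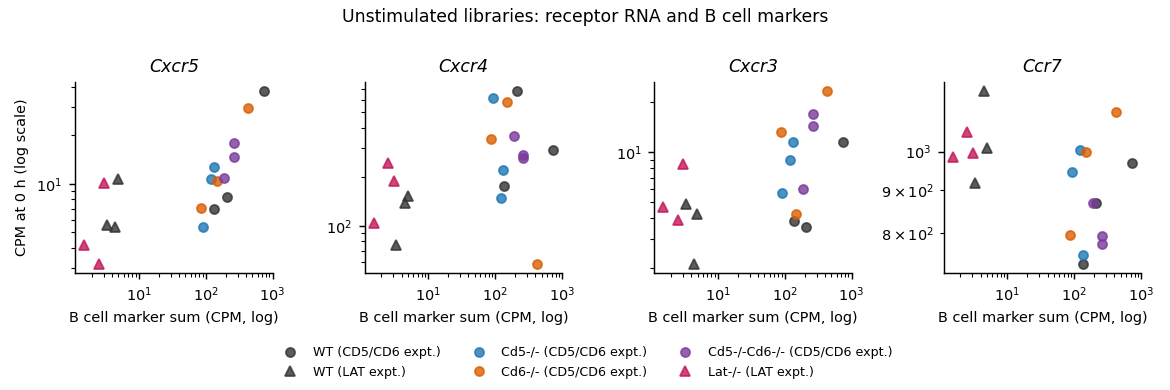
Level of Cxcr5, Cxcr4, Cxcr3, and Ccr7 (y axes, CPM, log scale) against the summed level of 10 B cell markers (x axes, CPM, log scale) in the 12 unstimulated libraries of the CD5/CD6 experiment (circles) and the 6 of the LAT experiment (triangles). The 2 libraries with the highest marker sums, 737 and 425 CPM, are those with the highest Cxcr5, and the LAT libraries hold Cxcr5 at marker sums up to 4.97 CPM.

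Ccr9 fell stepwise in enriched WT cells, from 15.5, 13.1, and 16.0 CPM at 0 h to 6.17, 4.43, and 4.93 CPM at 4 h and 1.35, 1.11, and 1.18 CPM at 20 h. It was 12.2-fold lower at 20 h (log2 fold change -3.61, SE 0.27, adjusted p 5.72e-20) and the 3 groups did not overlap. The sorted WT cells went from 10.5, 9.18, and 8.54 CPM to 5.09, 6.83, and 2.68 CPM and 0.984, 0.553, and 0.707 CPM, 12.6-fold lower at 20 h (log2 fold change -3.65, SE 0.30, adjusted p 1.49e-32, or 5.16e-08 with filterByExpr).

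**Figure D2:**
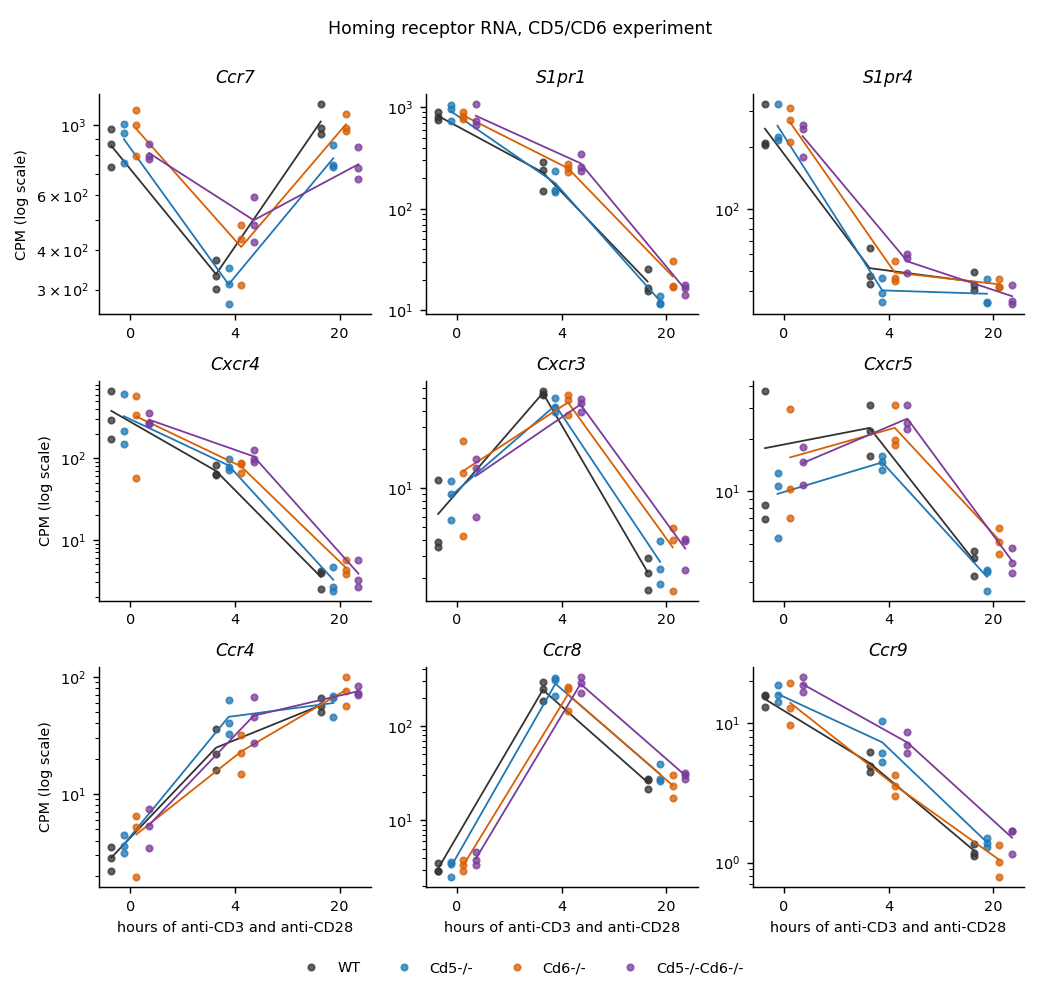
Level of each receptor in each library of the CD5/CD6 experiment (y axis, CPM on a log scale with its own range per gene) at 0, 4, and 20 h (x axis, evenly spaced). Points are libraries, lines join the means of the 3 libraries of a genotype. Ccr8 and Cxcr3 peak at 4 h and S1pr1 and Cxcr4 are lowest at 20 h in the WT libraries, and Cxcr4 runs from 57.9 to 677 CPM over the 12 libraries at 0 h.

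Counted over the 9 genes, a fold change above 2 with an adjusted p under 0.05 was reached by 8 in enriched WT cells at 4 h (3 higher, 5 lower), where 19.3% of all tested genes reached it, and by 8 at 20 h (2 higher, 6 lower), where 29.6% did. In sorted WT cells 4 reached it at 4 h (3 higher, 1 lower, against 17.3% of all genes) and 6 at 20 h (2 higher, 4 lower, against 23.5%). All 9 genes are expressed, and for the genes averaging 50 counts or more the shares were 38.9%, 50.1%, 33.4%, and 40.4% in the same order. The 2 experiments were never fitted together, and whether their WT responses differ was not tested.

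The effect of CD5 and CD6 on these receptors was then examined. At 20 h, 8 genes were called in the same direction in all 4 genotypes (2 higher, 6 lower), and at 4 h 7 were (3 higher, 4 lower). The log2 fold change of S1pr1 at 20 h ranged from -6.21 to -5.26 over the 4 genotypes, that of Cxcr4 from -6.77 to -6.17, and that of Ccr4 from 3.79 to 4.31. At 4 h, that of Ccr8 ranged from 6.00 to 6.45 and that of Cxcr3 from 1.78 to 3.10. Without replicate 1 the 20 h value of Cxcr4 was -5.65 in cells labelled Cd5-/- and -5.35 in those labelled Cd6-/-, and without replicate 3 the 4 h value of Cxcr3 in the latter was 2.56. Ccr7 at 4 h was the gene called in some genotypes and not in others. It fell by 1.53 on the log2 scale in cells labelled Cd5-/- and by 1.24 in cells labelled Cd6-/- (by 0.97, not called, without replicate 3), and its log2 fold change in Cd5-/-Cd6-/- cells was -0.71. The difference between that response and the WT response did not pass the test (0.65, SE 0.23, adjusted p 1). Of the 9 genes, 8, 8, and 7 were called at 4 h in cells labelled Cd5-/-, Cd6-/-, and Cd5-/-Cd6-/-, against 19.5%, 18.0%, and 17.2% of all genes, and 8 in each at 20 h, against 30.0%, 28.2%, and 30.3%. From 4 h to 20 h, 8 were called in enriched WT cells, against 21.0%, and 7, 8, and 6 in the 3 knockouts, against 21.3%, 20.8%, and 21.4%.

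Set against WT cells of the same time, 0 of the 9 genes were called in any of the 9 comparisons (edgeR), and 0 were called by DESeq2. Of all tested genes, the shares called in cells labelled Cd5-/-, Cd6-/-, and Cd5-/-Cd6-/- were 0.0619%, 0%, and 0.0248% at 0 h, 0.0743%, 0.00310%, and 0.0434% at 4 h, and 0.0186%, 0.0186%, and 0.0434% at 20 h. The 81 log2 fold changes lay between -0.88 and 1.08 with SE between 0.16 and 0.39, 16 of them had an unadjusted p under 0.05, and the lowest adjusted p was 0.282. The value with the lowest unadjusted p was Ccr7 at 4 h in Cd5-/-Cd6-/- cells, 425, 481, and 589 CPM against 302, 374, and 332 CPM in WT cells (log2 fold change 0.57, SE 0.16, adjusted p 0.447). Ccr4 at 4 h had the lowest adjusted p, in cells labelled Cd5-/- (log2 fold change 0.88, SE 0.26). In Cd5-/-Cd6-/- cells its value of 0.91 (adjusted p 0.519) became 1.30 and was called without replicate 1. The 0 h value of Ccr4 in these cells, 0.92, became 1.01 and was also called without replicate 1. The highest in size was Cxcr3 at 0 h in libraries labelled Cd6-/-, 4.23, 13.2, and 23.4 CPM against 3.52, 3.82, and 11.6 CPM (log2 fold change 1.08, SE 0.32, adjusted p 1). The groups overlapped in this gene. Its call depended on single replicates: without replicate 3 of every group, Cxcr3 was called at 0 h as higher in libraries labelled Cd5-/- (1.21) and Cd6-/- (1.23) and in Cd5-/-Cd6-/- cells (1.64), and without replicate 1 in those labelled Cd6-/- (1.24) and in Cd5-/-Cd6-/- cells (1.02). Without replicate 2 none of these passed. In fits without a replicate the spread came from the trend alone, which makes their p-values lower. The Cxcr3 level of WT replicate 3 at 0 h, 11.6 CPM, was the highest of its group, and so were its B cell marker sum of 737 CPM and its myeloid marker sum of 392 CPM. Among 0 h libraries labelled Cd6-/-, library 3 (Cxcr3 23.4 CPM) had a B cell marker sum of 425 CPM. Its myeloid marker sum, 520 CPM, was the highest of the 12 enriched 0 h libraries. Library 2 (13.2 CPM) had the lowest B cell marker sum of the 12, 86.8 CPM, and a myeloid marker sum of 168 CPM. The part of other cells in the Cxcr3 results was not tested.

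The differences between a knockout's response and the WT response were tested in the same fit. Of 54 such values for the 9 genes, 0 were called by edgeR and 0 by DESeq2, 5 had an unadjusted p under 0.05, and they lay between -1.32 and 0.95. For the 4 h response of Cxcr3 in Cd5-/-Cd6-/- cells the difference was -1.26 (SE 0.45, adjusted p 1), and it was called at -1.23 (adjusted p 0.00562) when only the groups compared entered the fit. Without replicate 3 it was -2.01 in those cells, -1.64 in cells labelled Cd5-/-, and -1.34 in cells labelled Cd6-/-, called in each, and without replicate 1 it was called in cells labelled Cd6-/- (-1.48). Also without replicate 3, 2 other differences were called in Cd5-/-Cd6-/- cells. They were the 4 h response of Cxcr4 (1.05, against 0.95 with all libraries) and the 20 h response of Cxcr3 (-1.16, against -0.36). The shares of all genes called were 0.00310%, 0%, and 0% at 4 h and 0.00310%, 0.00310%, and 0% at 20 h, in the same order of knockouts. Without both 0 h libraries 2, Cxcr5 was called as lower in the remaining 0 h libraries labelled Cd5-/- (log2 fold change -1.14, adjusted p 0.0192, against -0.88 with them). Those libraries held B cell marker sums of 92.0 and 121 CPM, below the 136 to 737 CPM of WT libraries. No other call for the 9 genes changed without both 0 h libraries 2. Without replicate 2 of every group, Cxcr5 was likewise called as lower at 0 h in libraries labelled Cd5-/- (-1.51).

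**Figure D3:**
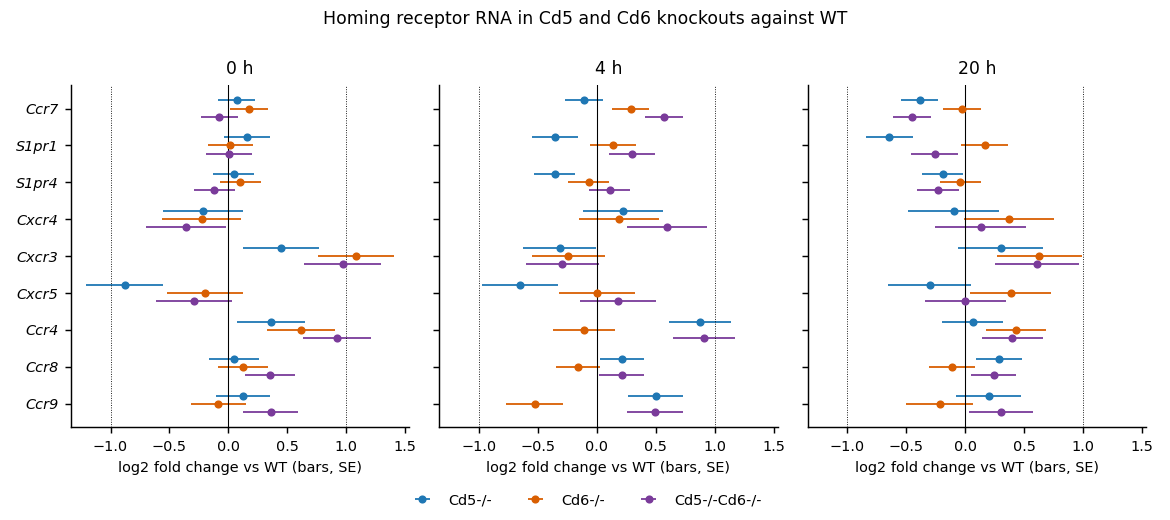
Log2 fold change of each receptor in Cd5-/-, Cd6-/-, and Cd5-/-Cd6-/- cells against WT cells (x axis) at 0, 4, and 20 h, by gene (y axis). Points are estimates from edgeR and bars their SE, dotted lines mark the fold threshold of 2, and 1 of the 81 points, Cxcr3 at 0 h in libraries labelled Cd6-/-, lies beyond it, without passing the test.

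The course of the receptors differed in Lat-/- cells. At 0 h, 8 of the 9 genes did not differ by the call rule between Lat-/- and WT cells. Ccr8 did, at 0.642, 0.839, and 0.976 CPM in Lat-/- cells against 4.16, 3.47, and 3.78 CPM in WT cells, 4.58-fold lower without overlap (log2 fold change -2.20, SE 0.23, adjusted p 7.66e-19, or 0.00573 with filterByExpr), where 0.961% of all genes were called. The sum of 5 regulatory T cell markers was also lower in these Lat-/- libraries, 39.9 to 62.9 CPM against 118 to 174 CPM, and its part in the Ccr8 difference was not tested. With stimulation, 6 of the 9 genes differed at 4 h (3 higher and 3 lower in Lat-/- cells, against 11.7% of all genes) and 6 at 20 h (4 higher and 2 lower, against 24.4%).

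S1pr1 went the opposite way without LAT. Lat-/- libraries held 751, 757, and 786 CPM at 0 h, 1827, 1999, and 1860.01 CPM at 4 h, and 2183, 2654, and 1896 CPM at 20 h. The rise was 2.48-fold by 4 h (log2 fold change 1.31, SE 0.15, adjusted p 5.3e-17, or 0.000117 with filterByExpr) and 2.93-fold by 20 h (log2 fold change 1.55, SE 0.15, adjusted p 3.15e-23, or 7.07e-05 with filterByExpr), and at 20 h the level was 40.1-fold that of WT cells. The difference between the responses passed the test at both times, by 1.84 (SE 0.21) at 4 h and 5.28 (SE 0.22) at 20 h on the log2 scale, with filterByExpr adjusted p of 0.000164 and 1.04e-09. S1pr4, which fell in WT cells, did not, with 299, 295, and 281 CPM at 0 h, 261, 339, and 278 CPM at 4 h, and 387, 472, and 459 CPM at 20 h. Its changes from 0 h stayed under the fold threshold, and its responses differed from those of WT cells by 1.63 (SE 0.21) and 2.88 (SE 0.21), with filterByExpr adjusted p of 0.000584 and 5e-07. At 20 h every Lat-/- library was above every WT library for both S1P receptors, and per length S1pr1 then overlapped Ccr7 at the top of the 9 genes in Lat-/- cells (737 ± 125 and 564 ± 96.9 RPKM).

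Ccr7 was not lower at 4 h in Lat-/- cells. It was at 986, 1056, and 997 CPM at 0 h, 1324, 1659, and 1304 CPM at 4 h, and 926, 1111, and 1309 CPM at 20 h, and none of its changes with time passed the fold threshold. At 4 h the level was 2.09-fold that of WT cells (log2 fold change 1.06, SE 0.15, adjusted p 7.64e-12, or 0.000107 with filterByExpr), a call that was lost without replicate 1 or replicate 2, at 0.99 and 0.87. The responses differed at 4 h by 1.10 (SE 0.21), or by 0.83, under the threshold, without replicate 2. Cxcr4 fell less by 20 h than in WT cells. Lat-/- libraries held 104, 245, and 188 CPM at 0 h, 270.1, 176, and 130.3 CPM at 4 h, and 73.8, 92.8, and 81.5 CPM at 20 h. It was 2.16-fold lower at 20 h than at 0 h (log2 fold change -1.11, SE 0.15, adjusted p 1.93e-11, or 0.00925 with filterByExpr), or a log2 fold change of -0.91 without replicate 2, and at 20 h it stood 22.3-fold above WT cells. The 20 h responses differed by 3.93 (SE 0.23, filterByExpr adjusted p 5.5e-07).

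Of the receptors that rose in WT cells, Cxcr3 and Ccr4 were not called as higher in Lat-/- cells at either time, and Ccr8 was at both. Cxcr3 was at 4.64, 3.92, and 8.50 CPM at 0 h, 4.43, 1.53, and 5.31 CPM at 4 h, and 1.31, 0.853, and 4.21 CPM at 20 h in Lat-/- cells, and its 4 h response differed from the WT response by -4.82 (SE 0.31, filterByExpr adjusted p 2.96e-05). Its level at 20 h was lower than at 0 h by edgeR (-1.43, adjusted p 2.39e-08, or 0.0465 with filterByExpr) and not by DESeq2 (adjusted p 0.0602). Ccr4 was at 3.31, 5.36, and 6.63 CPM, 6.54, 5.93, and 5.98 CPM, and 1.97, 2.19, and 4.04 CPM, and at 20 h it was 22.5-fold lower than in WT cells (log2 fold change -4.49, SE 0.23, adjusted p 9.6e-85, or 2.74e-09 with filterByExpr). At 4 h it was 2.57-fold lower, or -0.96 on the log2 scale and under the fold threshold without replicate 2. Its responses differed by -1.78 (SE 0.29, or -1.18 without replicate 2) at 4 h and -4.91 (SE 0.31) at 20 h, with filterByExpr adjusted p of 0.00595 and 1.6e-07.

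Ccr8 went from 0.642, 0.839, and 0.976 CPM at 0 h to 52.8, 39.7, and 30.1 CPM at 4 h and 4.50, 2.49, and 5.38 CPM at 20 h in Lat-/- cells, so that no time overlapped another. The rise by 4 h was 49.2-fold (log2 fold change 5.62, SE 0.22, adjusted p 5.64e-145, or 3.83e-09 with filterByExpr). Its level was 8.12-fold below that of WT cells at 4 h and 6.75-fold below at 20 h. The regulatory T cell marker sum was lower at these times as well, 53.2 to 72.7 against 139 to 161 CPM at 4 h and 44.7 to 55.3 against 136 to 188 CPM at 20 h, and its part in the result was not tested. The difference between the 4 h responses, -0.83 (SE 0.29, adjusted p 0.0335, or 0.219 with filterByExpr), stayed under the fold threshold, and without replicate 1 it was -1.11 with an adjusted p of 0.0492. The lowest Ccr8 counts, 13 to 24 reads per library, are those of Lat-/- cells at 0 h, from which this rise was measured.

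Ccr9 fell without LAT as well. Cxcr5 was called as lower at 20 h in Lat-/- cells, which it was not in sorted WT cells. Ccr9 was at 16.0, 15.9, and 12.4 CPM at 0 h, 4.22, 3.76, and 2.50 CPM at 4 h, and 3.08, 6.20, and 4.33 CPM at 20 h. It was 4.22-fold lower at 4 h (log2 fold change -2.08, SE 0.26, adjusted p 1.05e-13, or 6.42e-05 with filterByExpr) and 3.24-fold lower at 20 h. At 20 h it was 6.11-fold higher than in WT cells, and the 20 h responses differed by 1.96 (SE 0.39, filterByExpr adjusted p 0.0015). The 4 h responses differed by -1.12 (SE 0.36, adjusted p 0.0144), a call that was lost with filterByExpr (adjusted p 0.052), with library totals (adjusted p 0.0606), and without replicate 1 or 2 (-1.23 and -0.74, adjusted p 0.114 and 0.314). Cxcr5 was at 4.20, 3.17, and 10.1 CPM at 0 h, 4.68, 2.82, and 6.61 CPM at 4 h, and 1.21, 1.86, and 3.49 CPM at 20 h. Its groups overlapped from 0 h to 20 h although the fall was called (log2 fold change -1.41, SE 0.28, adjusted p 1.12e-05, or 0.0291 with filterByExpr), and with all libraries it was not called against WT cells at any time. The difference at 4 h was -0.93 (SE 0.26). It was called as lower without replicate 3 at 4 h (-1.24) and 20 h (-1.33), and at 4 h in the replicate block (-1.02).

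**Figure D4:**
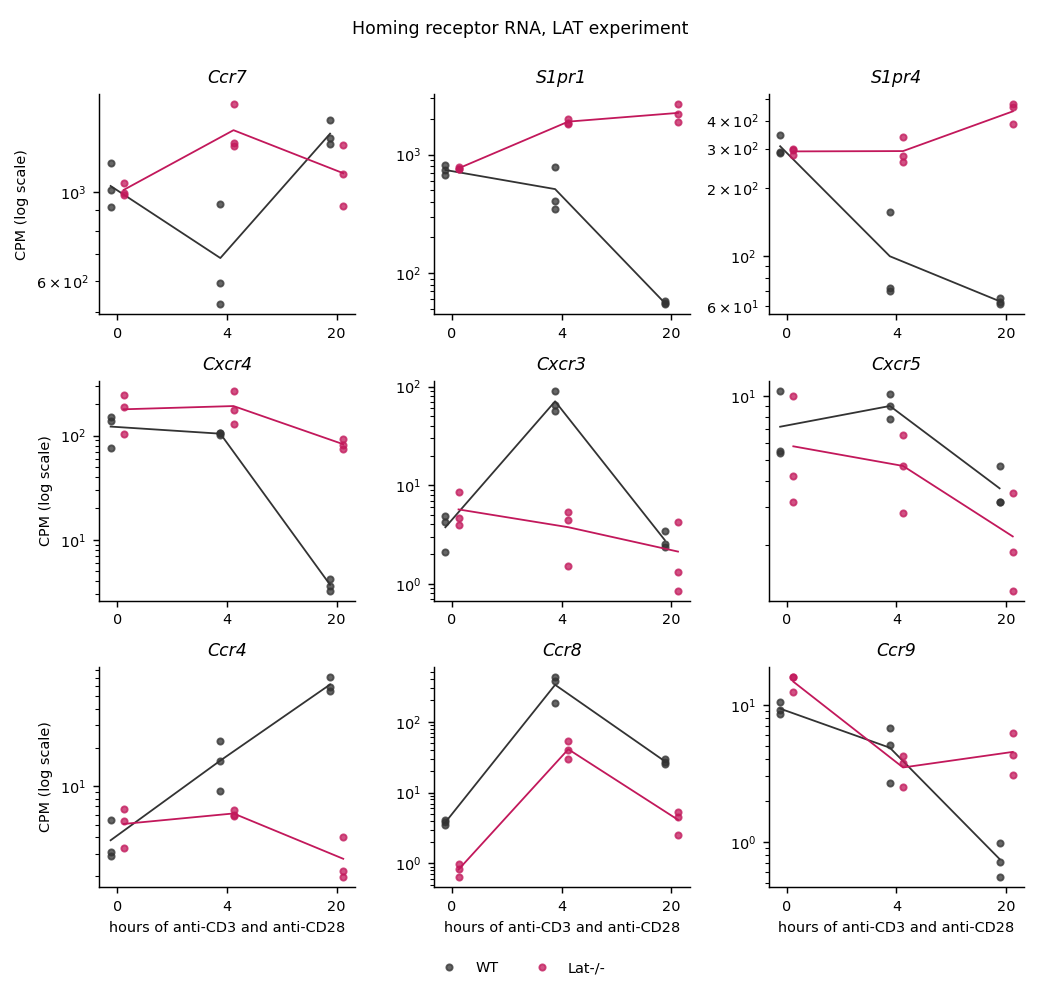
Level of each receptor in each library of the LAT experiment (y axis, CPM on a log scale with its own range per gene) at 0, 4, and 20 h (x axis, evenly spaced). Points are libraries and lines join the means of 3 libraries. S1pr1, S1pr4, and Cxcr4 of Lat-/- cells lie above all WT libraries at 20 h, Cxcr3 of Lat-/- cells lacks the 4 h peak, and Ccr8 peaks at 4 h in both groups.

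Counted over the 9 genes, Lat-/- cells changed 3 at 4 h (2 higher, 1 lower) and 6 at 20 h (2 higher, 4 lower), against 6.70% and 4.21% of all genes. From 4 h to 20 h, 4 were called in Lat-/- cells (1 without replicate 1), against 4.10%, and 8 in sorted WT cells, against 17.2%. Without the fold threshold, 5 were called in Lat-/- cells at 4 h (against 15.4% of all genes), 7 in sorted WT cells at 4 h (against 29.0%), and 2 between Lat-/- and WT cells at 0 h (against 1.59%). The 2 that rose at 4 h and at 20 h were S1pr1 and Ccr8. The 4 that were lower at 20 h were Cxcr4, Cxcr3, Cxcr5, and Ccr9. Between the responses of Lat-/- and WT cells, 6 of the 9 genes differed at 4 h, against 8.71% of all genes, and 5 at 20 h, against 19.5%. The summed level of CD4+ T cell markers also fell by 20 h in sorted WT cells and not in Lat-/- cells, as given above, and its part in these results was not tested.

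**Figure D5:**
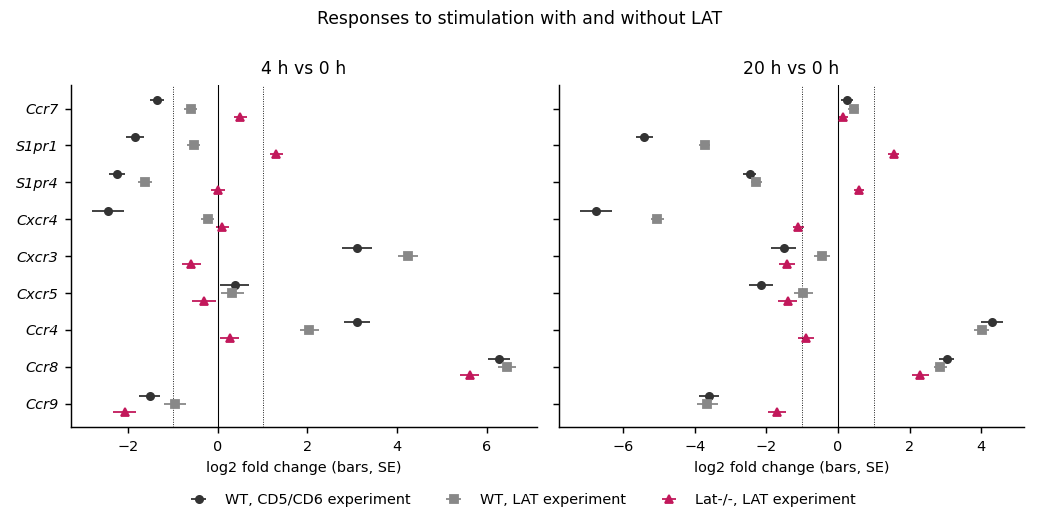
Log2 fold change from 0 h to 4 h (left) and to 20 h (right) of each receptor (x axis, bars are SE from edgeR) in WT cells of both experiments and in Lat-/- cells. Dotted lines mark the fold threshold of 2. In the LAT experiment the bars follow the trend shared by all genes and not each gene's own spread. The S1pr1 estimates of Lat-/- cells, 1.31 and 1.55, lie on the other side of 0 from those of both WT groups, and those of Ccr8 lie on the same side as in both.

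The genes around the receptors were counted from lists at 20 h, where 29.6%, 23.5%, and 4.21% of all tested genes were called in enriched WT, sorted WT, and Lat-/- cells, and 50.1% and 40.4% of those averaging 50 counts or more in the 2 WT groups. Of 13 transcription factors tied to homing and quiescence, 9 were lower and 2 higher at 20 h in enriched WT cells, 8 were lower and 1 higher in sorted WT cells, and 0 were lower and 3 higher in Lat-/- cells, against 29.6%, 23.5%, and 4.21% of all genes. The medians of their log2 fold changes were -2.08, -1.65, and 0.48, against 0 over all tested genes in each comparison. Klf2, which encodes a factor that drives S1pr1 transcription, went from 609.8 ± 121 CPM through 137 ± 47.0 CPM at 4 h to 16.8 ± 2.90 CPM at 20 h in enriched WT cells (SD, n = 3; log2 fold change at 20 h -5.18, SE 0.25). In the LAT experiment it went from 563 ± 82.1 to 41.0 ± 4.76 CPM at 20 h in WT cells, and from 538 ± 65.8 to 908 ± 97.1 and 932 ± 93.8 CPM at 4 h and 20 h in Lat-/- cells, where its log2 fold changes of 0.75 and 0.79 stayed under the fold threshold. The 20 h responses of Klf2 differed by 4.57 (SE 0.22). Klf3, a related factor, went from 348 ± 58.0 to 721 ± 19.6 CPM at 4 h in Lat-/- cells, a rise that passed the test (1.05, SE 0.15), and fell by 3.04 on the log2 scale at 20 h in WT cells of that experiment. Foxo1, a factor of quiescent T cells upstream of Klf2 and Ccr7, fell by 2.63 at 20 h in enriched WT cells and by 1.79 in sorted WT cells, and its log2 fold change in Lat-/- cells was -0.33 (SE 0.15), under the threshold. Irf4, which scales with the strength of the T cell receptor signal, was higher at 4 h in all of these groups, by 6.61, 6.46, and 5.76, and reached 249 ± 80.2 CPM in Lat-/- cells against 1725 ± 450.5 CPM in WT cells of the same experiment. Tbx21, which encodes the T helper type 1 factor T-bet, rose by 4.14 (SE 0.52) at 20 h in enriched WT cells, and in sorted WT cells its log2 fold change was 0.22 (SE 0.30).

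Of 16 genes for G proteins, receptor kinases, arrestins, and RGS proteins, which couple or silence these receptors, 7 were lower and 2 higher at 20 h in enriched WT cells, 8 lower and 2 higher in sorted WT cells, and 3 lower and 2 higher in Lat-/- cells, against 29.6%, 23.5%, and 4.21% of all genes. The enriched WT count is near the share among genes averaging 50 counts or more, 50.1%. Rgs16, an inhibitor of G protein signaling, rose from 2.83 ± 1.40 to 393 ± 67.5 CPM at 4 h in enriched WT cells (log2 fold change 7.13, SE 0.35), by 6.86 in sorted WT cells, and by 4.58 in Lat-/- cells. Rgs14, another RGS gene, fell in all 3 at 20 h, by 3.15, 3.10, and 1.08. Rgs2 was lower at 20 h in both WT groups (-2.23 and -1.88), and at 4 h in Lat-/- cells it was higher by 1.16. Arrb1, which encodes an arrestin, fell by 2.43 in enriched and by 1.59 in sorted WT cells at 20 h, and its log2 fold change in Lat-/- cells was 0.80 (SE 0.15), under the fold threshold.

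Of 17 genes of the adhesion and migration machinery, 10 were lower and 0 higher at 20 h in enriched WT cells, 7 lower and 0 higher in sorted WT cells, and 0 were called in Lat-/- cells, against 29.6%, 23.5%, and 4.21% of all genes. Both WT counts are near the shares among genes averaging 50 counts or more, 50.1% and 40.4%. Itga4 and Itgb7, whose products form the gut homing integrin α4β7, fell by 3.07 and 3.02 in enriched WT cells and by 2.38 and 2.56 in sorted WT cells, against log2 fold changes of 0.81 and -0.47 in Lat-/- cells. Dock2, which activates RAC downstream of chemokine receptors, fell by 2.02 and 1.72 in the WT groups at 20 h and was at 0.10 in Lat-/- cells, after a fall of 1.22 at 4 h. Tln1, which links integrins to actin, fell by 2.01 and 1.59 in the WT groups, with -0.86 in Lat-/- cells, under the threshold.

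Of 20 other chemokine and S1P receptors, 14 were lower and 0 higher at 20 h in enriched WT cells, and of the 18 tested in the LAT experiment 6 were lower and 1 higher in WT cells and 1 was lower and 1 higher in Lat-/- cells, and the shares of all genes, here and for the next 2 lists, were 29.6%, 23.5%, and 4.21%. Ccr3, Cx3cr1, and Ccr2, receptors of granulocytes, monocytes, and other myeloid cells, had the strongest falls of the list in enriched WT cells counting those that averaged 50 counts or more. Their levels at 0 h were 7.54 ± 2.39, 3.66 ± 1.95, and 8.45 ± 2.52 CPM there against 0.0392 ± 0.0415, 0.459 ± 0.267, and 1.03 ± 0.0804 CPM in sorted WT cells. The myeloid marker sum of enriched WT cells fell over the same time, from 168 to 392 CPM to 1.36 to 1.86 CPM. Their NK cell marker sum fell as well, from 68.4 to 115 CPM to 2.37 to 4.90 CPM. The part of either in these falls was not tested. Of 11 genes for S1P metabolism and transport, 5 were lower and 1 higher at 20 h in enriched WT cells, 0 lower and 2 higher in sorted WT cells, and 0 were called in Lat-/- cells. Mfsd2b, an S1P exporter of blood cells, was at 2.21 ± 0.489 CPM at 0 h and 0.272 ± 0.0211 CPM at 20 h in the first group and at 0.370 ± 0.320 and 0.368 ± 0.0590 CPM in the second. Of 12 ligand genes, 11 were tested in the CD5/CD6 experiment, where 4 were lower and 1 higher at 20 h in WT cells, and 7 in the LAT experiment, where 1 was higher in WT and 2 were higher in Lat-/- cells, and 0 were lower. Ccl1, the ligand of CCR8, was at 1.93 ± 0.271 CPM at 4 h and 1.65 ± 0.601 CPM at 20 h in enriched WT cells. Cxcl10, a ligand of CXCR3, peaked at 4 h with 6.49 ± 3.58 CPM in enriched WT cells and 6.22 ± 3.60 CPM in Lat-/- cells.

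The genes whose course was most like each receptor's were named by the lower of 2 Pearson correlations of group mean log2 CPM, over the 12 groups of the CD5/CD6 experiment and over the 6 groups of the LAT experiment, among 10073 other genes. These correlations describe shared courses, since the groups share a time axis, libraries, and scaling. For S1pr1 the genes were Dyrk2, Mtmr12, and Heca (r of at least 0.995 in both experiments). For S1pr4 they were Ccm2, Nudt16, and Slc12a7 (at least 0.993), for Ccr7 Micu2, Reep5, and Stk11ip (at least 0.937), and for Cxcr4 Cast, Epas1, and Sp2 (at least 0.984). Ccr8 ran with Egr2 and Nr4a3, transcription factors induced within hours of T cell receptor engagement, and with Slamf7 (at least 0.993). Ccr4 ran with Aars, Lars, and Gars, which encode aminoacyl-tRNA synthetases (at least 0.971). For Cxcr3 the genes were Wiz, Csrnp1, and Map3k11 (at least 0.957), for Cxcr5 Sdc4, Arc, and Ikzf2 (at least 0.934), and for Ccr9 Ranbp6, Gm20069, and Ap3d1 (at least 0.977).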

How the data were processed

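The authors deposited 2 tables of counts per gene, 1 for the CD5/CD6 experiment and 1 for the LAT experiment. Per the study's methods, stranded poly(A) libraries were read on a HiSeq (bcl2fastq 2.17.1.14 in the submitters' processing notes), aligned to GRCm38 with STAR, counted with featureCounts, and compared with DESeq2. Each table was fitted on its own in edgeR 4.0.16 (R 4.3.3) over genes with at least 1 read in total, with TMM factors, 1 coefficient per group, and the quasi-likelihood test. Calls required more than a 2-fold change and a Benjamini-Hochberg adjusted p under 0.05. The SE of a log2 fold change is its size divided by the square root of F. CPM and RPKM were computed from the counts and the TMM-scaled library sizes. edgeR estimated 50.9 prior degrees of freedom in the CD5/CD6 table and an unbounded number in the LAT table, where every gene then took its spread from the trend.

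Alternatives were DESeq2 1.42.0, RLE size factors, library totals, filterByExpr, only the groups compared, the replicate number as a block, each replicate left out, the adjusted p alone, and the fit without both doubtful 0 h libraries. In the CD5/CD6 table, deviations of same-numbered libraries correlated above 0.1 in every pair in 20 of 21 comparisons, and in the LAT table in 2 of 9, so numbers were taken to pair libraries in the first table. The main fit held no term for the replicate number, so its SE and adjusted p do not use that pairing. Only the replicate block, an alternative, does. In the second the correlations of Lat-/- with WT libraries ran from 0.307 to 0.438 at 0 h, from 0.0223 to 0.400 at 4 h, and from 0.0726 to 0.294 at 20 h, and whether a number marks 1 mouse is not given in the sources used here. Members and gene lists were chosen with earlier results of these data known. Named from each list were at most 4 genes, those called in enriched WT cells at 20 h with the largest change and a mean of at least 50 counts, and Klf2 and Foxo1. The fitting steps were tested on simulated data with known changes. The simulation gave every gene the same spread and left out genes with few counts. It therefore could not test whether the trend-based p-values of the LAT table hold. No column of the tables was left unused.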

Additional observations from a re-analysis of the deposited data

Results flagged for a closer look

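The values here are differences between the responses of Lat-/- and WT cells, as log2 fold changes from 0 h, tested as interaction terms in the fit of the LAT experiment by edgeR's quasi-likelihood test with 3 libraries a group. A positive value means that the response was higher in Lat-/- cells. The SE and adjusted p of this fit rest on the trend shared by all genes. At 4 h the test singled out Ccr7 at 1.10 (SE 0.21, adjusted p 2.38e-06), S1pr1 at 1.84 (SE 0.21, adjusted p 7.53e-17), and S1pr4 at 1.63 (SE 0.21, adjusted p 9.55e-13) as higher. It singled out Cxcr3 at -4.82 (SE 0.31, adjusted p 2.84e-51), Ccr4 at -1.78 (SE 0.29, adjusted p 5.51e-08), and Ccr9 at -1.12 (SE 0.36, adjusted p 0.0144) as lower.

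At 20 h the responses of S1pr1 at 5.28 (SE 0.22, adjusted p 2.33e-125), S1pr4 at 2.88 (SE 0.21, adjusted p 2.95e-39), Cxcr4 at 3.93 (SE 0.23, adjusted p 4.01e-63), and Ccr9 at 1.96 (SE 0.39, adjusted p 3.84e-06) were higher in Lat-/- cells. That of Ccr4 was lower, at -4.91 (SE 0.31, adjusted p 1.85e-55). Ccr9 thus differed in opposite directions at the 2 times, and of these it was the 4 h value that was lost with filterByExpr (adjusted p 0.052). No gene was singled out for a library far from its group, since groups of 3 were not tested for that.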

How the results depend on the processing

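No call changed direction under any alternative. Of 342 results for single genes, DESeq2 left 341 on the same side of the thresholds, RLE size factors 341, library totals 338, filterByExpr 340, only the groups compared 341, the adjusted p alone 319, and leaving out replicate 1, 2, or 3 of every group 328, 333, and 321. Without both doubtful 0 h libraries 242 of 243 were unmoved.

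In the replicate block 339 of 342 were unmoved, and no call of the CD5/CD6 experiment changed. In the LAT experiment, where the pairing of libraries by number is uncertain, 3 values passed the thresholds in the block: Ccr9 in WT cells at 4 h (-1.01), Cxcr5 in Lat-/- against WT cells at 4 h (-1.02), and the difference of the 20 h response of Cxcr3 (-1.10).

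Counts of called receptors moved by more than 1.5 times as follows. By the adjusted p alone, 7 in place of 4 were called in WT cells of the LAT experiment at 4 h, 5 in place of 3 in Lat-/- cells at 4 h, and 2 in place of 1 in Lat-/- against WT cells at 0 h, and the counts of 10 other comparisons rose by 1 to 3 genes. With only the groups compared, 1 in place of 0 was called for the difference of the 4 h response in Cd5-/-Cd6-/- cells, and without both doubtful libraries 1 in place of 0 in libraries labelled Cd5-/- against WT at 0 h. With 1 replicate of every group left out, the counts ranged from 0 to 1 for Cd5-/- and for Cd6-/- against WT at 0 h and for the 4 h response differences of both, from 0 to 2 for Cd5-/-Cd6-/- against WT at 0 h and for its 4 h response difference, from 0 to 1 for Cd5-/-Cd6-/- against WT at 4 h and for its 20 h response difference, and from 1 to 5 for Lat-/- cells from 4 h to 20 h, where replicate 1 decided the count of 4. The causes were not tested.

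Levels per length moved by more than the spread between replicates in 8 of 162 values when library totals replaced the TMM-scaled sizes. By Spearman's rho most of the genes named as alike were other genes. The lowest count in a single library was that of Ccr8 in Lat-/- cells at 0 h, where libraries held 13 to 24 reads. Ccr9 in sorted WT cells at 20 h was about as low, at 0.553 to 0.984 CPM. The Ccr9 changes measured against that group therefore rest on few reads too.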
